A study of Mus musculus with 8 samples.

Results

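CpG shelf promoter sites are the cytosines of CpG dinucleotides that lie less than 1 kb upstream of a gene and inside a CpG shelf, the strip of DNA that follows the shore of a CpG island on its outer side. They were taken as all entries of the promoter table that carry the shelf annotation, which gave 1502 of 203645 promoter sites, at 164 of 9224 genes. The sites fell in 161 shelf windows of up to 2000 bp. For 24 of these windows, an island with measured promoter sites had its edge 2000 bp away. Because the strands of a CpG are listed separately, the 1502 sites stand for 939 CpGs. The remaining promoter sites were 156142 in CpG islands, 22015 in shores and 23986 in none of these (open sea).

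Reduced representation bisulfite sequencing was applied to germline stem (GS) cells, cultured spermatogonia with stem cell activity, from B6 mice labelled as wild type and untreated. Control-F1 lines (29, 37, 44 and 45) came from mice of natural mating, and ICSI-F1 lines (11, 17, 20 and 21) came from mice produced by injecting sperm into the oocyte. CD9-expressing spermatogonia had been sorted from adult testes, so a line describes cells selected in culture with GDNF and FGF2, and each line gave 1 library. The lines are separate derivations, and the sources used here do not say which lines share a father or a litter.

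CpG islands are dense in CpG and are kept free of DNA methylation in most cells, also where their genes are silent. Away from islands CpG is sparse and is methylated as a rule, and shelves lie in this transition on the far side of the shore. In a promoter, dense methylation goes along with a silent gene, and in the male germline the pattern is largely set before birth and then maintained through spermatogonial divisions.

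Depth differed little between the groups once the scaling of the table was undone, with a median coverage per shelf site of 42 to 80 reads across the control-F1 lines and of 56 to 77 reads across the ICSI-F1 lines. The wording of the labels divides the lines into library set 1 (29, 37, 11 and 17) and library set 2 (44, 45, 20 and 21), each with both groups. Shelf levels of the sets did not overlap, at 15.9% to 18.3% in set 1 and 19.4% to 20.5% in set 2. What the sets stand for is not stated, so group differences that change much between the sets are also given within them.

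Stretches of reference sequence show the range of promoters that the shelf annotation takes in. They are read on the + strand of GRCm38 (mm10), and capitals mark the CpGs that were measured. The first set holds a pair of promoters with almost no methylation, which are rich in CpG and start right at the gene.
Ptpn21, chr12:98737407-98737526: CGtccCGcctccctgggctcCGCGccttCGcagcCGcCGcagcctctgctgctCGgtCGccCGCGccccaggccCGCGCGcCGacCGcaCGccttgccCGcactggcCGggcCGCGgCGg
Parp4, chr14:56575555-56575618: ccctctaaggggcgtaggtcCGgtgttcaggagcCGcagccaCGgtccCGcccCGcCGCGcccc
The second set holds a pair of promoters whose measured CpGs were all methylated. These CpGs lie 536 to 622 bp (Larp4) and 816 to 888 bp (Sox10) from the gene start, and 5 of the 9 CpGs in the Sox10 stretch were measured.
Larp4, chr15:99969423-99969530: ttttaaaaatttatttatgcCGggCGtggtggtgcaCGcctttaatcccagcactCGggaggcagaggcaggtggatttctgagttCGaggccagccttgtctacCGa
Sox10, chr15:79166036-79166148: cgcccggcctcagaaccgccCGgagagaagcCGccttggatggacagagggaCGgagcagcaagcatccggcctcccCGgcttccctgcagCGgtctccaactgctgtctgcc
The third set holds promoters with sites whose groups differed by over 20 percentage points.
Tmem223, chr19:8770929-8770995: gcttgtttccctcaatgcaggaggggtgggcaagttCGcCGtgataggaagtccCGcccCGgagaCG
Mpnd, chr17:56005631-56005710: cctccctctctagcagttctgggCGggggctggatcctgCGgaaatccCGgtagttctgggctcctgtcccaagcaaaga
Nfic, chr10:81455636-81455706: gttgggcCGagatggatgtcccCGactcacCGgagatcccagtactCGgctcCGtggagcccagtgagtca
Kcnk10, chr12:98579088-98579230: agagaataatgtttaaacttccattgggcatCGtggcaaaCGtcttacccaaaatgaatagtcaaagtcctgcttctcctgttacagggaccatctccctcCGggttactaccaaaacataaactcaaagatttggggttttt
Lrfn3, chr7:30362840-30362920: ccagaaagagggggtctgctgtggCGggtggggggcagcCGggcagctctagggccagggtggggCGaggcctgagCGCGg
Gm10660, chr8:67365303-67365383: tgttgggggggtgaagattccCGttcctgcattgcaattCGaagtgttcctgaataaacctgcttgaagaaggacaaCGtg
The last stretch lies 37 to 81 bp before Meg3, an imprinted gene.
Meg3, chr12:109540899-109540984: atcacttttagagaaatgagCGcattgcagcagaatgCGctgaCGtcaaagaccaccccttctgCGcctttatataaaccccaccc
None of these stretches overlapped an annotated untranslated region. The Sox10 stretch overlapped an exon of Gm10863, and the others overlapped no exon of GENCODE M21. The Ptpn21 stretch has 22 CpGs in 120 bp, all measured, whereas the Kcnk10 stretch has 3 CpGs in 143 bp.

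Most shelf sites were unmethylated and a smaller number were fully methylated. Of the 1502 sites, 911 had a mean level under 5% over the 8 lines and 143 had a mean level of 90% or more. Levels of 40% to 60% were found at only 39 sites. The median site was at 3.55% and the mean site at 18.6%. The 1058 sites under 10% lay a median of 77.0 bp from the gene start, with a median observed-to-expected CpG ratio of 0.71 in the surrounding 201 bp. The 165 sites at 80% and over lay a median of 605 bp away and had a ratio of 0.40. Repeats held 1.89% of the low sites and 18.2% of the high ones.

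The level rose with distance from the gene beyond the first 100 bp. Shelf sites within 50 bp of the start had a mean level of 9.18%, and those at 51 to 100 bp had 8.37%. The mean was 13.5% at 101 to 200 bp and 20.4% at 201 to 400 bp, and it reached 52.5% at 401 to 999 bp. In the 8 lines the mean of the farthest bin was 47.9% to 55.3%, above the range of 7.45% to 10.6% in the nearest bin. Across sites, Spearman's rho was 0.46 between level and distance and −0.50 between level and the CpG ratio (n = 1502 sites, which share libraries and neighbours, so no p is given). Sites in dense surroundings (GC over 50% and CpG ratio over 0.6) had a mean level of 6.65%, and the others had 30.9%. Within 200 bp of the start the dense sites were at 5.198% and the others at 18.9%, so the contrast was also present near the gene. Beyond 200 bp the dense sites were at 17.9% and the others at 43.0%. Open sea sites followed a similar course with 10.3% in the nearest and 48.1% in the farthest bin. Shore sites were at 7.09% in the nearest bin and at 14.9% in the farthest.

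**Figure D1:**
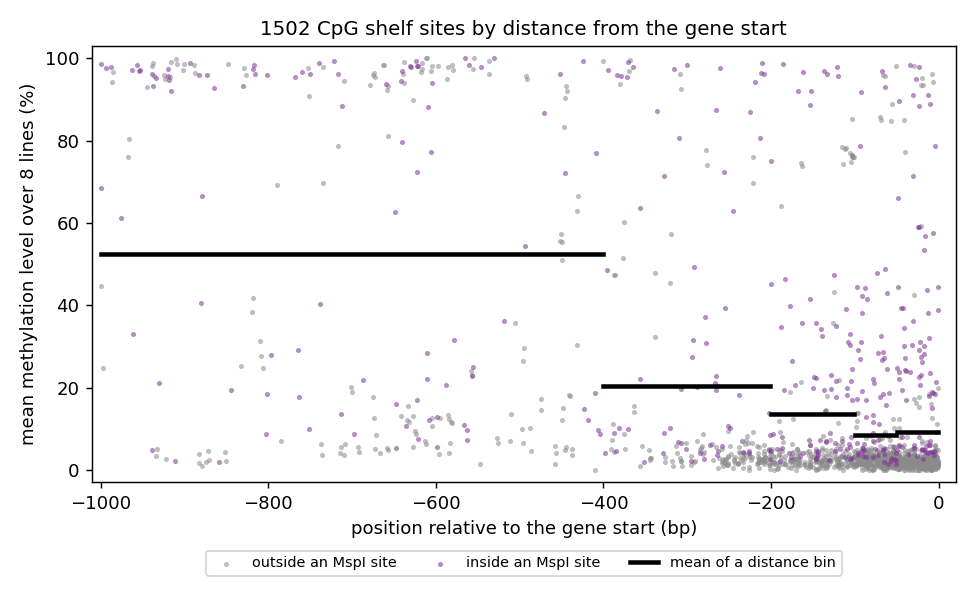
Mean methylation level over the 8 lines (%, vertical axis) of each of the 1502 shelf sites against its position relative to the gene start (bp, horizontal axis), with sites inside MspI recognition sites in purple, the others in grey and black bars for the mean of each distance bin. Low sites crowd the 200 bp next to the gene, and the bar of the farthest bin stands at 52.5%.

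In comparison with the other annotations, shelf sites were more methylated than island and shore sites in 8 of 8 lines. The shelf mean exceeded the island mean by 13.7 percentage points ± 0.895 (SD, n = 8 lines; exact two-sided sign-flip permutation test over 256 flips, p = 0.0078 and 0.0078 after Benjamini-Hochberg adjustment over 3 comparisons, the smallest p possible). It exceeded the shore mean by 7.29 ± 0.6003 points with the same p in the exact test. With every promoter weighted equally the shelf exceeded islands by 29.1 points and shores by 21.01 points. Against open sea the shelf mean was lower in 8 of 8 lines, by 2.06 points ± 0.521, again with an exact p of 0.0078. This last difference turned to 0.365 points higher (exact p = 0.13) when every promoter was given the same weight. The sign-flip tests flip lines over a fixed set of promoters. Their p therefore covers the spread between lines and not that between promoters. Over classes of level the shelf and the open sea were close, with 60.7% and 61.1% of sites under 5% and with 9.52% and 11.9% of sites at 90% or more. In islands 86.7% of sites were under 5% and 0.441% were at 90% or more.

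**Figure D2:**
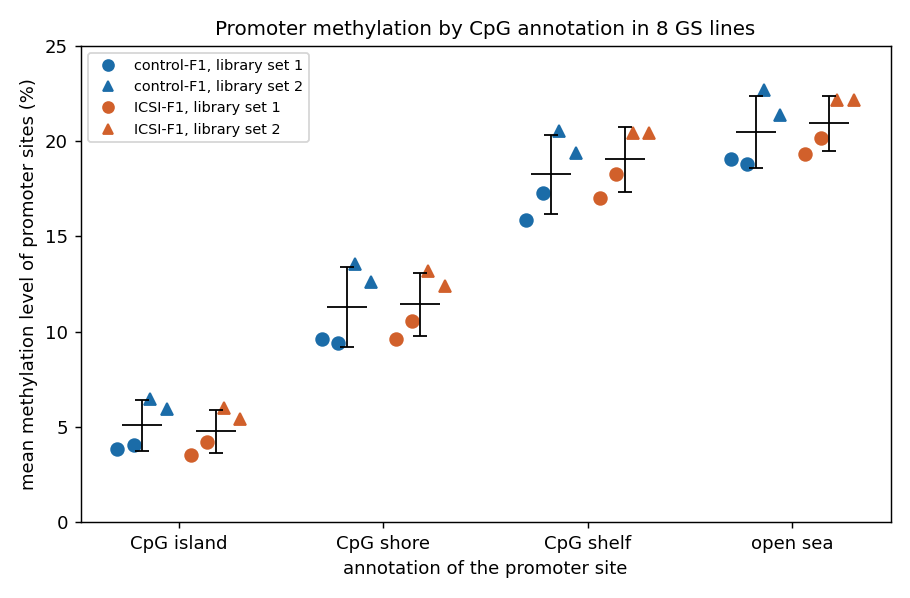
Mean methylation level (%, vertical axis) of promoter sites by CpG annotation in each line, with control-F1 lines in blue, ICSI-F1 lines in orange, circles for library set 1, triangles for library set 2, and black bars for group mean ± SD (n = 4). Shelf means lie between 15.9% and 20.5%, above every shore mean and below the open sea mean of the same line.

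In 19 promoters shelf sites stood beside sites of another annotation, 14 times shore and 5 times open sea. The shelf sites were lower by a mean of 4.57 percentage points (exact sign-flip permutation test over lines, p = 0.0078). However, the shelf was the higher of the pair in 9 of 19 promoters, a spread that this p does not cover. The mean rested on Slc29a1, a nucleoside transporter gene, where 12 shelf sites near the start were at 4.03% and 6 open sea sites farther out were at 81.2%. Without that promoter the mean difference was −0.538 points (exact p = 0.27). In the opposite direction, 1 shelf site of Wnt1, which encodes a secreted signalling protein, was at 61.2% where 30 shore sites nearer to the gene were at 10.6%. Shelf and other sites differed by less than 5 points in 7 of the 19.

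Strands of the same CpG can be compared because methylation of CpG is normally symmetric. Both strands were measured at 563 shelf CpGs, and their median difference was 1.63 percentage points. At 54 CpGs in 42 genes the strands differed by more than 20 points, and 54 of these 54 lay inside CCGG, the site that MspI cuts to make the libraries. Outside CCGG the widest difference among 463 CpGs was 15.6 points. Inside CCGG, 54 of 100 CpGs differed by over 20 points, with a median of 58.3% on the higher and 6.65% on the lower strand. The higher strand was the + strand at 27 of them and the − strand at 27. The widest gap was at H1f5, a linker histone gene, with 98.4% on the + strand and 3.75% on the − strand. At Ramp3, which encodes a receptor accessory protein, the + strand was at 4.55% and the − strand at 95.9%. These genes were picked after their values were seen.

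**Figure D3:**
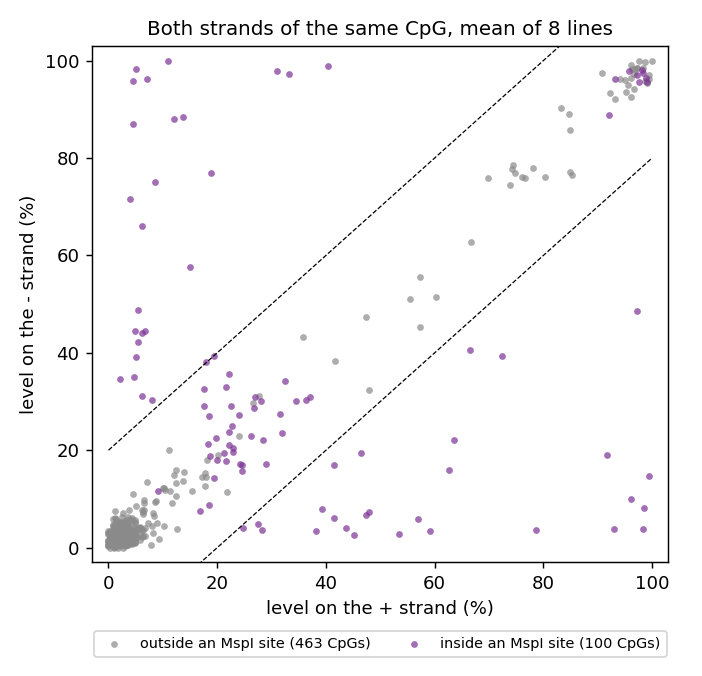
Mean level over 8 lines on the + strand (%, horizontal axis) and on the − strand (%, vertical axis) of the 563 shelf CpGs measured on both, with CpGs inside MspI sites in purple and the others in grey, and dashed lines at a difference of 20 points. The 54 points outside the dashed lines are all purple.

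The cutting site held 25.0% of shelf sites but 61.6% of the 279 sites at intermediate levels of 10% to 80%. In islands, shores and open sea it held 98.0%, 79.99% and 64.4% of the intermediate sites. Shelf sites inside CCGG had a mean level of 37.7%, and those outside had 12.3%. Outside CCGG the level still rose with distance, from 4.63% within 50 bp to 47.3% at 401 to 999 bp. The part of the cutting site in the intermediate levels was not tested further, and results below are marked where they rest on it.

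Most promoters were low or high in their mean. Of 164 promoters, 74 had a mean shelf level under 10%, 50 had a mean of 10% to 80% and 40 had a mean of 80% or more. With every promoter weighted equally the mean was 34.9%, well over the mean over sites, since the 50 promoters with at least 10 shelf sites held 1060 sites and 35 of these 50 were under 10%. Protein-coding genes (132 promoters) had a median promoter level of 9.34%, and 28 of them were at 80% or more. The 23 lincRNA genes had a median of 26.6%, and the 9 antisense genes had a median of 42.7%.

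Among the low promoters, Ptpn21, the gene of a non-receptor tyrosine phosphatase, had the most shelf sites. Its 69 sites at chr12:98737407-98737669 averaged 0.945%, 2.61%, 3.31% and 2.79% in lines 29, 37, 44 and 45, and 1.36%, 1.17%, 2.41% and 1.87% in lines 11, 17, 20 and 21. Every line stayed under 4% there, and the groups overlapped. Chaf1a, which encodes a subunit of the chromatin assembly factor, had 57 sites and 3.99% to 5.58% in the 8 lines. Parp4 (13 sites) and Neu1, the lysosomal sialidase gene (12 sites), had means of 1.56% and 1.60%. S1pr5, a sphingosine-1-phosphate receptor gene (41 sites), had a mean of 7.13%. Flrt2, a cell adhesion gene (35 sites), had 12.3%, and St6galnac4, a sialyltransferase gene (34 sites), had 4.62%.

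At the other end, Sox10, a transcription factor gene of the neural crest, had 12 sites at chr15:79166056-79166179. They averaged 98.0%, 97.9%, 97.7% and 96.4% in the control-F1 lines and 94.4%, 98.2%, 97.4% and 95.7% in the ICSI-F1 lines. The lowest of these sites was at 93.1% over 8 lines. Larp4, which encodes an RNA-binding protein, had 16 sites that lay between 90.8% and 98.7% in the lines. The groups overlapped at both promoters.

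**Figure D4:**
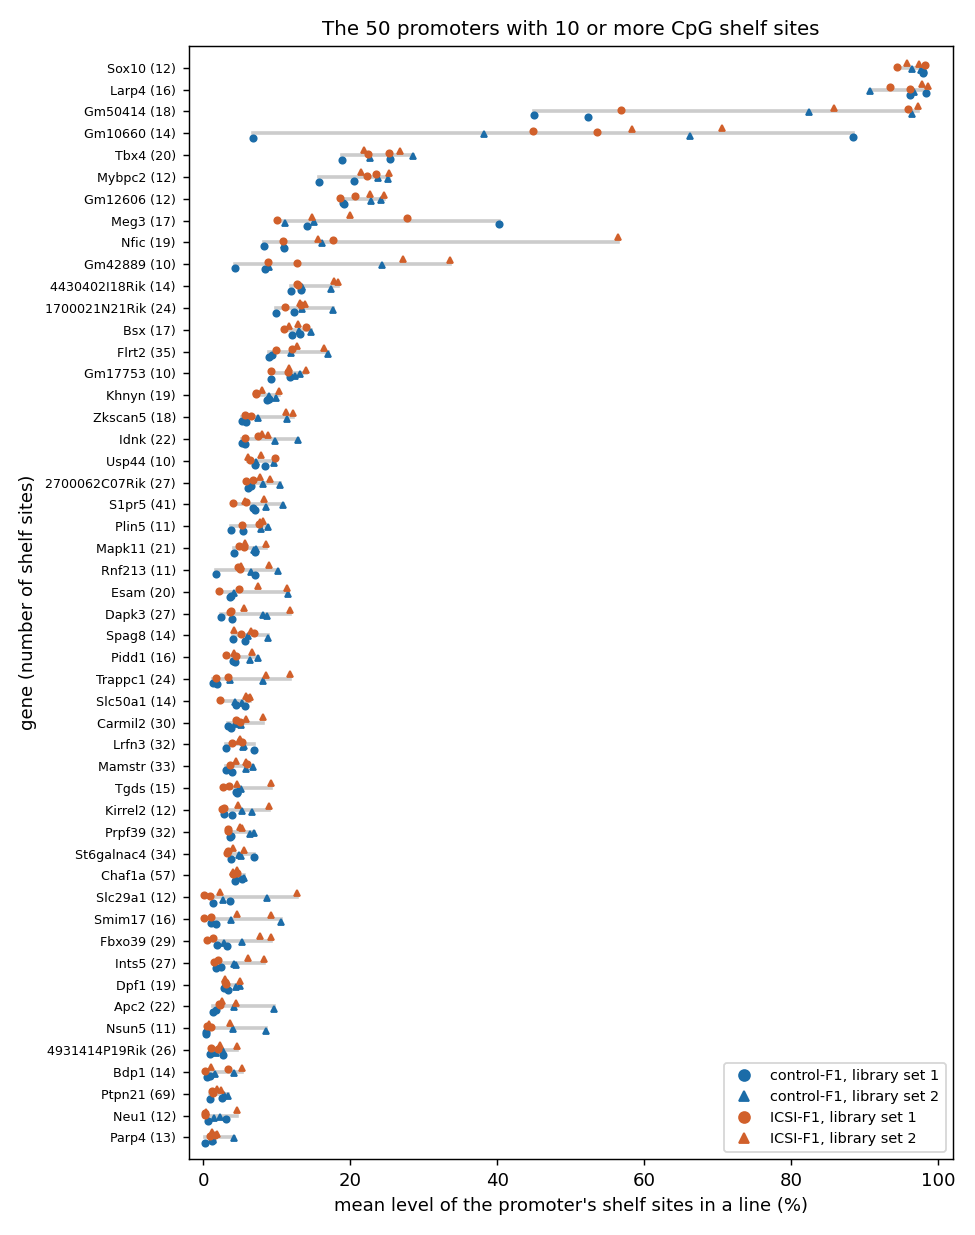
Mean level (%, horizontal axis) of the shelf sites of each of the 50 promoters with at least 10 shelf sites, in the 8 lines, sorted by level, with the number of sites behind each gene and grey bars from the lowest to the highest line. Most promoters lie below 15% with a narrow spread, Sox10 and Larp4 lie above 90%, and Gm10660, Gm50414 and Nfic have the widest spread between lines.

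Some promoters differed far more between lines than the rest. The median SD over the 8 lines was 2.92 points for the 164 promoters. The 14 sites of Gm10660 had an SD of 24.5 points, and the control-F1 lines alone ran from 6.73% (line 29) to 88.5% (line 37). The values of the other control-F1 lines were 66.3% (44) and 38.2% (45), and ICSI-F1 lines were at 53.6%, 44.9%, 58.3% and 70.6%. The 18 sites of Gm50414 had an SD of 21.7 points. They were at 52.4%, 44.98%, 96.5% and 82.4% in control-F1 and at 56.8%, 96.0%, 85.8% and 97.3% in ICSI-F1 lines, so low and high lines occurred in both groups. Nfic, a nuclear factor I transcription factor gene, had an SD of 15.7 points over 19 sites, and here 1 line stood apart. Line 21 was at 56.5%, and the other 7 lines lay between 8.27% and 17.6%. Scaled coverage of a site in a line went down to 10 reads in Gm10660, 13 in Gm50414 and 14 in Nfic. Neighbouring sites can share reads, so these spreads may hold sampling error, which was not tested.

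Imprinted genes are the list of greatest interest in the germline, since their alleles are marked according to the parent. Of 75 imprinted genes listed, 29 had promoter sites and 2 had shelf sites. Meg3, a maternally expressed long noncoding RNA, had 17 shelf sites at chr12:109540168-109540964. They averaged 14.1%, 40.3%, 11.1% and 15.0% in lines 29, 37, 44 and 45, and 9.99%, 27.7%, 14.8% and 19.9% in lines 11, 17, 20 and 21. Line 37 was highest and the groups overlapped. The difference was −2.03 points (exact two-sided permutation test, p = 0.8), with −8.35 points in set 1 and 4.29 points in set 2. Within Meg3, the sites 37 to 81 bp from the start were between 4.50% and 9.29%, and 4 of the sites at 356 to 410 bp belong to 2 CpGs whose strands differed by over 40 points.

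H19, the other maternally expressed RNA gene with shelf sites, had 4 sites at chr7:142578165-142578192. Its lines were at 34.7%, 43.3%, 29.7% and 32.7% in control-F1 and 32.4%, 35.6%, 35.4% and 31.3% in ICSI-F1. The groups overlapped in this mean. It is made of unlike parts, since the CpG at 142578165 was at 31.0% on the + strand and at 97.9% on the − strand, and the sites of the other CpG were at 5.86% and 2.80%. At 1 of the 4 sites, position 142578191, the groups did not overlap, with control-F1 lines at 9.09%, 18.2%, 4.82% and 8.33% and ICSI-F1 lines at 0.0%, 0.0%, 2.70% and 3.74%. Over the 4 sites the difference between the groups was −1.42 points (exact p = 0.77), with −4.95 points in set 1 and 2.11 points in set 2.

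Other lists reached the shelf sites only in part. Of 106 germ cell and spermatogonial stem cell genes, 39 had promoter sites and 0 had shelf sites, and of 82 chromatin and DNA methylation regulators, 41 had promoter sites and 0 had shelf sites. Only 164 of all 9224 genes with promoter sites had shelf sites, so a count of 0 in lists of this size is near that share. Among 41 housekeeping genes only Ywhaz, an adaptor protein gene, had shelf sites, and these 5 sites were methylated, with control-F1 lines at 93.0% to 95.7% and ICSI-F1 lines at 94.9% to 100.0%. The name pattern for ribosomal protein genes matched only Rps6ka5, which encodes a kinase, and its 7 sites had a mean of 95.8%. The pattern for histones matched H1f5 with 2 sites. Zinc finger genes gave Zkscan5 (18 sites, 8.21%) and Zfp42, a marker of pluripotent cells (1 site, 21.05%). Of 4 solute carrier genes, Slc29a1 and Slc50a1 were under 10%, Slc25a45 (5 sites) was at 56.8% and Slc66a2 (2 sites) was at 97.8%. Among genes without a given name, 10 of 21 Gm genes and 2 of 13 Rik transcripts were at 80% or more, beside 40 of all 164 promoters. The lists of respiratory chain, olfactory receptor, keratin, immune receptor, serpin and small RNA genes had 0 members with shelf sites. No promoter of any list passed the test between the groups described below.

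The question behind the series was whether ICSI leaves a trace in the methylation of the germline of the offspring. Over the 1502 shelf sites the mean level was 15.9%, 17.3%, 20.5% and 19.4% in lines 29, 37, 44 and 45, and 17.01%, 18.3%, 20.4% and 20.4% in lines 11, 17, 20 and 21. The groups overlapped. The control-F1 mean was 18.3% ± 2.08 and the ICSI-F1 mean 19.04% ± 1.69 (SD, n = 4 lines each). The difference was 0.783 percentage points (p = 0.6 by an exact two-sided permutation test with 70 arrangements, where 0.0286 is the smallest p). It was 1.08 points within library set 1 and 0.491 points within set 2. Without line 29 it was −0.0117 points, so the sign of this small difference depended on 1 control-F1 line. Sites at 80% or more made up 11.6% ± 1.21 of the shelf in the control-F1 group, against 12.5% ± 0.908 in the ICSI-F1 group (SD, n = 4 each, exact p = 0.29).

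Relative to the other promoter sites of the same line, shelf sites stood higher by 10.7 points ± 0.745 in the control-F1 group, against 11.6 points ± 0.545 in the ICSI-F1 group (SD, n = 4). The difference of 0.937 points had an exact two-sided permutation p of 0.057. Without line 29 it was 0.579 points (exact p = 0.14). It was 0.965 points in set 1 and 0.909 points in set 2. With reads pooled over sites it was 0.421 points (exact p = 0.63), and with every promoter weighted equally it was 0.590 points (exact p = 0.34). The intermediate sites had a mean difference of 4.50 points in favour of ICSI-F1, and the sites under 10% had −0.210 points. Open sea sites were alike in this, with 3.82 points at intermediate sites and −0.417 points under 10%, as were shore sites, with 2.94 and −0.463 points. The median differences of intermediate sites were smaller, at 2.97 points in the shelf, 2.64 in open sea and 1.97 in shores. The intermediate shelf sites include all 19 Nfic sites, whose mean difference of 13.5 points was 3.11 points without line 21. They also include most of the 18 Gm50414 sites, with a mean difference of 27.7 points in set 1 and 2.07 in set 2.

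A rule was modelled on that of the study, which also set a limit of 20% and left out sites reversed in any sample. Here a site was called when its group means were over 20 percentage points apart and the control-F1 mean lay to 1 side of all 4 ICSI-F1 lines, while control-F1 lines were not checked. It called 15 shelf sites higher in ICSI-F1, in 8 genes, and 2 lower, in 2 genes. Over all promoter sites the rule called 0.274% higher and 0.0506% lower, in all 0.324%, and the 17 shelf sites are 1.13% of the shelf. The shares by annotation were 0.0544% of island, 0.650% of shore and 1.73% of open sea sites, so that the shelf lay between shore and open sea. Neighbouring sites can share reads and are not independent, and 5 of the 17 lie in Gm50414 at positions 81649035 to 81649104. By gene, a site was called in 10 of 164 genes in the shelf and 75 of 5796 in islands. In shores it was 92 of 2710 genes and in open sea 186 of 2536. All 17 were sites of intermediate level, and of the intermediate sites the rule called 6.09% in the shelf, 0.638% in islands, 4.24% in shores and 9.74% in open sea. With the control-F1 lines held to the ICSI-F1 mean as well, 7 shelf sites remained, in Nfic, Mpnd, Tmem223, Gm42889, Lrfn3 and Gm10660, and 0.222% of all promoter sites were called. The smallest difference called was 20.4 points, the widest below the threshold was 19.9 points, and 5 sites over 20 points were left out because an ICSI-F1 line lay on the other side. Of the 17 sites, 7 lay inside CCGG. The count moved with single lines, to 7 sites without line 29, 31 without line 44 and 33 without line 11. With strands merged the rule called 7 CpGs. At least 20 scaled reads in every line were reached by 6 of the 17 sites, both Kcnk10 sites and those of Nfic, Tbr1, Gm42889 and Lrfn3, and 5 of these 6 lay inside CCGG.

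**Figure D5:**
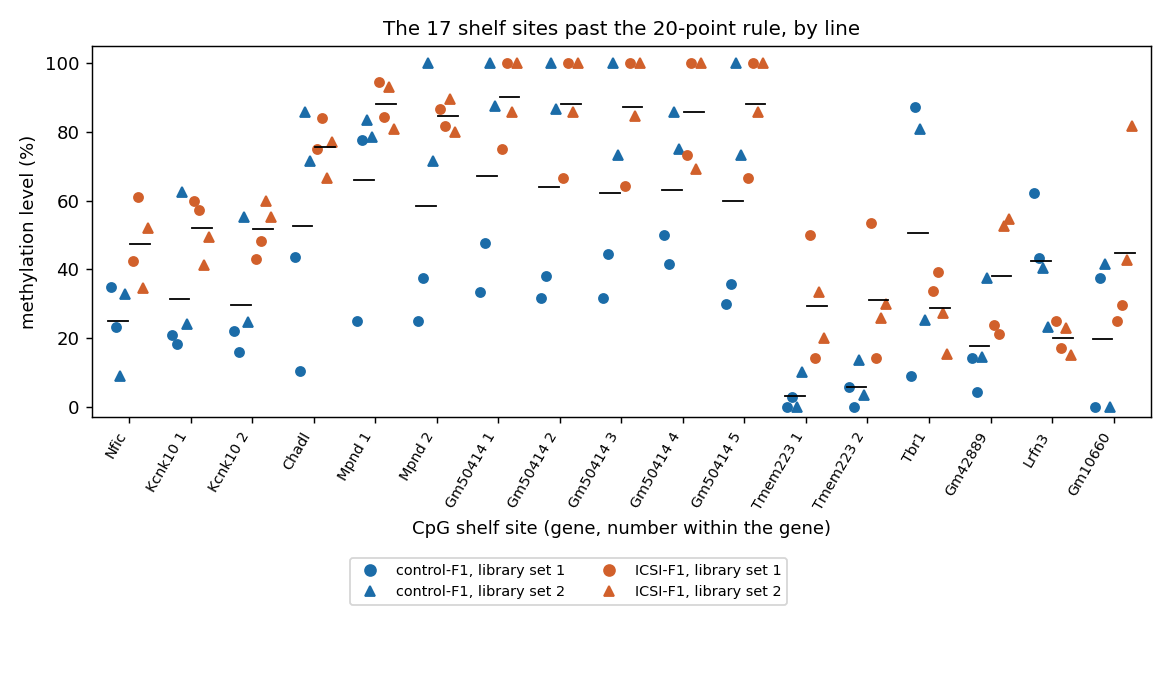
Methylation level (%, vertical axis) in each line at the 17 shelf sites called by the 20-point rule, with control-F1 lines in blue, ICSI-F1 lines in orange, circles for library set 1, triangles for set 2, and black lines for group means. The groups are apart only at the sites of Tmem223, and at Mpnd, Chadl and Gm50414 the control-F1 lines of set 2 lie above those of set 1.

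Tmem223, the gene of a transmembrane protein, was the only one whose groups were separate at the sites called. At chr19:8770969, on the − strand 27 bp from the gene, control-F1 lines were at 0.0%, 2.94%, 0.0% and 10.0%, and ICSI-F1 lines were at 50%, 14.3%, 33.3% and 20%. At position 8770984 control-F1 lines were at 5.88%, 0.0%, 13.6% and 3.57%, and ICSI-F1 lines were at 53.6%, 14.3%, 25.9% and 30.0%. Each ICSI-F1 line was above each control-F1 line at both, and neither position lies inside CCGG. Over the 7 shelf sites of the promoter the means were 12.8% ± 5.90 and 31.6% ± 10.0 (SD, n = 4 each, exact two-sided permutation p = 0.029, the smallest possible, before adjustment). These 7 sites include those by which the gene was picked in the same lines, so the exact p is not separate support. The lowest coverage of these sites in a line was 17 scaled reads. In the fit across all promoter segments limma gave an unadjusted p of 0.0187 and an adjusted p of 1.0 for it.

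Kcnk10, a gene of a potassium channel with tandem pore domains, had 2 sites called at 818 and 880 bp. At position 98579128 on chromosome 12 control-F1 lines were at 21%, 18.3%, 62.4% and 24.2%, and ICSI-F1 lines were at 60.0%, 57.1%, 41.4% and 49.4%. Line 44 lay above every ICSI-F1 line here, and the difference was 38.905 points in set 1 and 2.10 points in set 2. At position 98579190 the control-F1 lines were at 22.1%, 15.9%, 55.3% and 24.8%, and ICSI-F1 lines at 43.1%, 48.4%, 60.0% and 55.2%, a difference of 26.8 points in set 1 and 17.6 points in set 2. The latter site lies in CCGG, and its other strand had group means of 58.8% (control-F1) and 74.1% (ICSI-F1). Without line 44 both sites passed the logistic model over all promoter sites (adjusted p = 0.0448 and 0.0313), and with all lines neither did. In the fit without line 44, 70 of 192970 promoter sites passed.

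Mpnd, a gene named for its MPN domain, and Chadl, which encodes a matrix protein like chondroadherin, showed the difference mainly in library set 1. At the Mpnd site 56005680 of chromosome 17, control-F1 lines of set 1 were at 25.0% and 37.5%, control-F1 lines of set 2 at 100.0% and 71.4%, and ICSI-F1 lines were at 86.5%, 81.8%, 89.7% and 80%. The difference was 52.9 points in set 1 and −0.887 points in set 2, and this site lies inside CCGG. At the other Mpnd site, 56005671, line 29 was at 25.0% and the other 7 lines were between 77.6% and 94.4%. At the Chadl site 81697475 of chromosome 15, control-F1 lines were at 43.5%, 10.3%, 85.7% and 71.4%, and ICSI-F1 lines at 75.0%, 84.0%, 66.7% and 76.9%, which gave 52.6 points in set 1 and −6.78 points in set 2. The 5 sites of the lincRNA gene Gm50414 had the same form. Their differences were 40.8 to 50.5 points in set 1 and −0.893 to 6.19 points in set 2. Among them, the site at position 81649035 lies inside CCGG. A scaled coverage as low as 12 reads underlies Mpnd, and as low as 13 reads underlies Chadl and Gm50414.

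Nfic had 1 site called at position 81455666 of chromosome 10, inside CCGG. Control-F1 lines were at 35.0%, 23.2%, 8.84% and 32.9% there, and ICSI-F1 lines were at 42.3%, 61.1%, 34.6% and 51.9%. The difference was near 22 points in both library sets (22.6 and 22.4), and lines 29 and 20 were close to each other. On the other strand of this CpG the groups were at 28.6% and 31.9%. Gm42889 had 1 site called, also in CCGG, with 14.3%, 4.17%, 14.6% and 37.5% in control-F1 and 23.7%, 21.2%, 52.7% and 54.8% in ICSI-F1 lines, a difference of 13.2 points in set 1 and 27.7 points in set 2. Gm10660 had 1 site called with 0.0%, 37.5%, 41.7% and 0.0% in control-F1 and 25.0%, 29.6%, 42.9% and 81.8% in ICSI-F1 lines, at a scaled coverage down to 10 reads. The Gm10660 difference was 8.56 points in set 1 and 41.5 points in set 2, and this site lies in a repeat.

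The sites called lower in ICSI-F1 both lay inside CCGG. At Lrfn3, a synaptic adhesion gene, position 30362880 of chromosome 7 was at 62.2%, 43.3%, 40.5% and 23.3% in control-F1 and 25.0%, 17.1%, 22.8% and 15.1% in ICSI-F1 lines. Only line 45 fell among the ICSI-F1 lines. The other strand of that CpG had group means of 6.77% (control-F1) and 5.60% (ICSI-F1), and the 32 shelf sites of Lrfn3 together were at 5.23% and 4.74%. At Tbr1, a transcription factor gene of cortical neurons, position 61802752 of chromosome 2 ran from 9.09% to 87.2% in control-F1 and from 15.3% to 39.3% in ICSI-F1 lines. The control-F1 lines there were 9.09%, 87.2%, 80.8% and 25.1%, so they spanned the ICSI-F1 lines on both sides. The Tbr1 difference was −11.7 points in set 1 and −31.7 points in set 2, and that of Lrfn3 was −31.7 and −12.9 points.

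A count of sites where each ICSI-F1 line lay beyond each control-F1 line does not depend on a threshold. It gave 15 sites higher, where 0.427% of all promoter sites were higher, and 13 lower, where 0.679% were lower. Together they are 1.86% of shelf sites, with 1.11% over all promoter sites. By annotation the share was 0.925% in islands, 1.63% in shores and 1.75% in open sea. The shelf was thus close to shores and open sea. The widest separations besides Tmem223 were at Nfic, Fam47e and S1pr5, chosen here for their size. Position 81455643 of Nfic was at 0.0% to 5.66% in control-F1 and at 10.8%, 10.4%, 8.05% and 59.2% in ICSI-F1 lines. At Fam47e, position 92554971 of chromosome 5 was at 0.0% to 4.73% in control-F1 and at 15.4% to 33.3% in ICSI-F1 lines. At S1pr5, position 21248582 of chromosome 9 was lower, at 34.7% to 51.3% in control-F1 and at 20% to 32.2% in ICSI-F1 lines.

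No shelf site passed a test that uses the replicate spread and all promoter sites. The quasi-binomial logistic model called 0 of 1471 shelf sites at an FDR of 0.05, beside 0.0% of all sites, and the lowest adjusted p of a shelf site was 0.306. At an unadjusted p under 0.05 it had 129 shelf sites, or 8.77%, where all sites had 7.06%. For the 17 sites called by the 20-point rule the adjusted p from this model lay between 0.653 and 0.746. Limma on log2 ratios of methylated to unmethylated reads called 0 of 164 shelf segments, and 7 had an unadjusted p under 0.05, or 4.27%, where all promoter segments had 2.99%.

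The smallest p among segments belonged to Trim2, a ubiquitin ligase gene. Its 5 sites, 580 to 640 bp from the gene, were at 98.2%, 96.8%, 97.4% and 97.8% in control-F1 and at 100.0%, 100.0%, 99.4% and 98.4% in ICSI-F1 lines. The groups did not overlap, but the difference was only 1.89 points. In the limma fit over all segments its unadjusted p was 0.00457 and its adjusted p 1.0. The next were Ppp1r15a, a regulator of a translation factor phosphatase, with 5.78% and 1.44%, and Gm45601 with 99.0% and 95.5% in control-F1 and ICSI-F1. They were followed by 1700067K01Rik with 0.711% and 3.97%, and then by Tmem223. Of the 164 promoters, 82 were higher and 81 were lower in ICSI-F1, with a median difference of 0.0267 points, and 139 were within 5 points. Differences over 10 points were found at 11 promoters, 10 of them higher in ICSI-F1. For 5 of these 11, named above as Nfic, Gm50414, Tmem223, Chadl and Mpnd, more than 3 sites were measured, and the other 6 had 1 to 3 sites each. The share of such promoters outside the shelf was not counted. Over all promoter sites the 20-point rule also called more sites higher (0.274%) than lower (0.0506%), so under that rule the direction is not particular to the shelf. The count of sites without overlap went the other way over all promoter sites, with 0.427% higher and 0.679% lower. In the shelf that count was 15 higher and 13 lower.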

How the data were processed

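GS cell DNA of 4 control-F1 and 4 ICSI-F1 lines had been cut with MspI and sequenced after bisulfite conversion. Per the labels, reads were trimmed with Trim Galore 0.5.0, aligned to mm10 with Bismark 0.20.0 and processed with methylKit 1.16.0. The deposited promoter table holds, for each cytosine and line, coverage and numbers of methylated and unmethylated reads. The authors had scaled the coverage between lines and rounded it, so these values are used as a score rather than as read counts. Scaling factors of 1 to 1.875 were recovered from gaps in the coverage. Scaled coverage was at least 10 in every line, and no interval for counting error is given, since reads carried no molecular identifiers.

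The level of a site was 100 times methylated reads over their sum with unmethylated reads, and lines had equal weight in a group mean. Groups were compared by exact two-sided permutation tests over lines. Sites were fitted with a quasi-binomial logistic model whose dispersion was moderated across all sites (R 4.3.3, limma 3.58.1), and promoter segments, the sites of 1 gene and annotation, with limma on log2((methylated + 1)/(unmethylated + 1)), with Benjamini-Hochberg adjustment over all sites or segments. Both models were run on simulated sites, limma not on simulated segments, and the outcome is not given here. Python 3.11.15 with pandas 2.3.3 was used otherwise. Genes and untranslated regions come from GENCODE M21 and sequence, repeats and CpG ratios from the RefSeq GRCm38 assembly, where 1502 of 1502 shelf positions were a CpG.

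Named genes were all sites past the 20-point rule up to the 12 highest and 8 lowest, the 5 promoters with most sites, the 3 highest, 3 lowest and 3 most variable promoters with at least 10 sites, the 5 segments with the smallest p, and members of gene lists. Of the 15 sites higher in ICSI-F1, 3 (in Gm42889, Kcnk10 and Mpnd) fall outside that rule and were added after their values were seen. The shelf sites, tests and gene lists were chosen with earlier results of these data known. Alternatives were other coverage minimums and thresholds, merged strands, other weights and models, leaving out lines, and, chosen after seeing the data, leaving out CCGG sites, the library sets for the 20-point rule and the named items, and leaving out the Slc29a1 promoter.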

Additional observations from a re-analysis of the deposited data

Results flagged for a closer look

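Dixon's test for a line far from the other 3 of its group was applied to the shelf mean, the named promoters and the sites past the 20-point rule. It picked out 5 of 82 groups of 4 lines. Chance gives about 1 in 20 for normal values in groups not chosen by their values. That rate cannot be set against this count, since some promoters were chosen for their spread between lines and sites for their group difference. Promoters and their own sites are also both counted. ICSI-F1 line 21 was at 56.5% over the 19 Nfic sites, where the other ICSI-F1 lines were at 10.9% to 17.6%. The same line was at 4.53% over the 12 Neu1 sites, where the others were at 0.181% to 0.397%. ICSI-F1 line 20 was at 5.75% over the 3 Ppp1r15a sites, where the others were at 0.0%, so that any level above 0.0% would have been picked out. Control-F1 line 44 was at 62.4% at the first Kcnk10 site, where the others were at 18.3% to 24.2%. Control-F1 line 29 was at 25.0% at the first Mpnd site, where the others were at 77.6% to 83.3%.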

How the results depend on the processing

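The higher level of shelf than of island and shore sites kept its direction and passed the exact test over lines under every alternative run. Against open sea the difference turned to 0.365 points with promoters weighted equally. The same-promoter difference of −4.57 points lost its call with at least 20 scaled reads (−1.67), at least 30 scaled reads (−1.29) and without Slc29a1 (−0.538).

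The mean difference between groups ran from −0.0117 to 1.53 points when a line was left out, and the cause was not tested. Neither it nor the difference relative to other promoter sites passed the exact test under any alternative run. The latter fell from 0.937 to 0.579 points without line 29. The 17 sites past the 20-point rule became 6 with at least 20 scaled reads, 6 with at least 30 scaled reads and 7 with strands merged. They became 10 without CCGG sites, 7 when control-F1 lines were checked as well, 55 at a threshold of 10 points and 0 at 30 points. They became 59 in library set 1 alone and 37 in set 2 alone, where 2 lines stand against 2, and 7 to 33 without a line (fewest without line 29, most without line 11). The 28 sites without overlap became 17 with at least 30 scaled reads, 15 without CCGG sites, and 41 to 59 without a line, where fewer lines make separation easier. For the 20-point rule and the overlap count, shares over all promoter sites were not computed under these alternatives, except with control-F1 lines checked. The logistic model called 0 to 2 shelf sites without a line, and the 2, both in Kcnk10, were without line 44. In that fit it called 2 of 1458 shelf sites and 70 of 192970 promoter sites. Limma called 0 segments under every alternative.

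Within library set 2 alone the difference reversed at the sites of Chadl (−6.78), Mpnd 56005680 (−0.887) and Gm50414 (−0.893 and −0.476), and at the promoters of Kcnk10 (−4.22) and Chadl (−4.72). Without a line the Lrfn3 promoter ran from −1.20 to 0.0766 points and the Gm10660 promoter from −7.45 to 19.8, with the sign change in both without line 29.

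Lines were not paired, because the control-F1 and ICSI-F1 lines share no line number. The exact tests between groups did not hold the library set fixed. With library set as a covariate the logistic model called 0 of 1471 shelf sites and 0 of 196818 promoter sites. Limma with the same covariate called 0 of 164 shelf segments and 0 of 11206 promoter segments. A level from 10 scaled reads moves in steps of about 10 points, so single low-coverage sites are coarse.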
